A study of Mus musculus with 44 samples.

Results

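This account follows 10 genes of protein kinase A and cAMP turnover in mouse ovarian follicles exposed to PFNA (perfluorononanoic acid, a perfluoroalkyl substance). The members were taken by symbol: the regulatory subunits Prkar1a, Prkar2a and Prkar2b, the catalytic subunits Prkaca and Prkacb, the phosphodiesterases Pde4b, Pde4d and Pde3a, the G-protein regulator Rgs2 and the transcription factor Crem. All 10 were found among the 22674 rows of the maturation table and among the 18274 rows of the ovulation table. The samples were wild-type follicles of CD-1 mice, an outbred strain, profiled by RNA-seq. In the maturation window, the gonadotropin-dependent growth of the follicle, 11 control libraries labelled DMSO (the solvent) were compared with 10 libraries labelled PFNA. In the ovulation window, 12 control libraries labelled hCG (human chorionic gonadotropin, which acts through the LH receptor) were compared with 11 labelled hCG+PFNA, so every follicle of that window had received hCG. The dose, the duration, the age of the mice and the number of follicles or animals behind a library are not given in the labels. P-values therefore measure the spread between these libraries, which may be partly technical. A value after ± is the SD over the libraries of a group, with the n just given.

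The gonadotropins FSH and LH act on granulosa cells, the somatic cells around the oocyte, by raising cyclic AMP. Cyclic AMP binds the regulatory subunits of protein kinase A (PKA) and releases its catalytic subunits, which phosphorylate CREB and other targets. Phosphodiesterases degrade cyclic AMP and so end the signal, and several genes of this circuit, among them those for PDE4 enzymes, RGS2 and CREM, are themselves known to be induced by the LH surge. The oocyte keeps its own cyclic AMP high while it is arrested in meiosis, and PDE3A is the phosphodiesterase that lowers it when meiosis resumes.

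Promoter sequences are shown for members that moved furthest in the ovulation window, Pde4b, Pde4d and Rgs2 downward and Prkar2b upward, because CREB binds the cyclic AMP response element TGACGTCA or its shorter form TGACG. Each sequence is the 250 bases before a RefSeq transcription start on GRCm38.p6, written 5′ to 3′ on the gene's strand, and capitals mark TGACG or its reverse complement CGTCA.
Rgs2 (chr1:144004150-144004399, minus strand): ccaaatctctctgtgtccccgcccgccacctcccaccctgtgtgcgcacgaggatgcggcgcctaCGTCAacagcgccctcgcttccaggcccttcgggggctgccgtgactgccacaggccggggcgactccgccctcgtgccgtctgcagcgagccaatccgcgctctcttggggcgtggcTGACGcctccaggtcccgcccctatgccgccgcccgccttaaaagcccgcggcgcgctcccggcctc
Pde4b (chr4:102421305-102421554, plus strand): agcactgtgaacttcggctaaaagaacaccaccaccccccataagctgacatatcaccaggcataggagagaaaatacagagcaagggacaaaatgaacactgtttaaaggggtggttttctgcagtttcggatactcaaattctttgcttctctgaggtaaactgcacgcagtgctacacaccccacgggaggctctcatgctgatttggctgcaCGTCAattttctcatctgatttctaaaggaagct
Pde4d (chr13:108653927-108654176, plus strand): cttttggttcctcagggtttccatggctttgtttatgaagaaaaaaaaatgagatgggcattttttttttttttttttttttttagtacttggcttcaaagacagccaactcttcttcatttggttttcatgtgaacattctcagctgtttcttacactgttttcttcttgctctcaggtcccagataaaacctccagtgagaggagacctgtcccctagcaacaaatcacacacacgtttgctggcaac
Prkar2b (chr12:32061278-32061527, minus strand): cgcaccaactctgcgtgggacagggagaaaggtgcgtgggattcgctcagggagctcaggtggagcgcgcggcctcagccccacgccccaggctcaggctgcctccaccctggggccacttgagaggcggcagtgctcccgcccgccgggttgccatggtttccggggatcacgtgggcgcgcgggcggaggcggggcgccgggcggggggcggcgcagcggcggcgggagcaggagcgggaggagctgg
The Rgs2 window held TGACG at 2 places, starting 185 and 67 bases before the start, and the Pde4b window held it at 1, 34 bases before. The Pde4d and Prkar2b windows held none, nor did the other 3 Pde4b entries or the other Prkar2b entry. RefSeq gave 20 start sites for 8 of the members, of which 7 held TGACG on either strand, and 5 of the 8 members had such an entry. Prkar1a alone gave 3 of these 7 entries, and overlapping windows among them share a site. Of all 32851 promoters listed, 17.8% held TGACG on either strand, a share per promoter and not per gene. The full 8-base element, which contains the shorter form and reads alike on both strands, stood before 1 of the 20, a Prkar1a start, and before 1.55% of all. These matches describe letters in a window and say nothing about binding.

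In follicles given hCG, Prkar2b was 5.95-fold higher with PFNA, and Pde4b, Pde4d, Rgs2 and Crem were 8.47-fold to 3.25-fold lower. With PFNA, 8 members were lower and 2 higher by edgeR's quasi-likelihood test (Benjamini-Hochberg adjusted p under 0.05 over all genes tested), so that every member passed. This share has to be read against a background in which 73.2% of 13441 genes tested passed, 35.2% lower and 38.0% higher. The groups did not overlap for 6 members, 5 lower and 1 higher, where this held for 26.0% of all genes tested, 14.1% lower and 11.9% higher. The median log2 fold change over the members was -0.83, beside 0.04 over all genes tested. In bulk follicles a smaller number of cells of a type and less RNA per cell cannot be told apart.

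**Figure D1:**
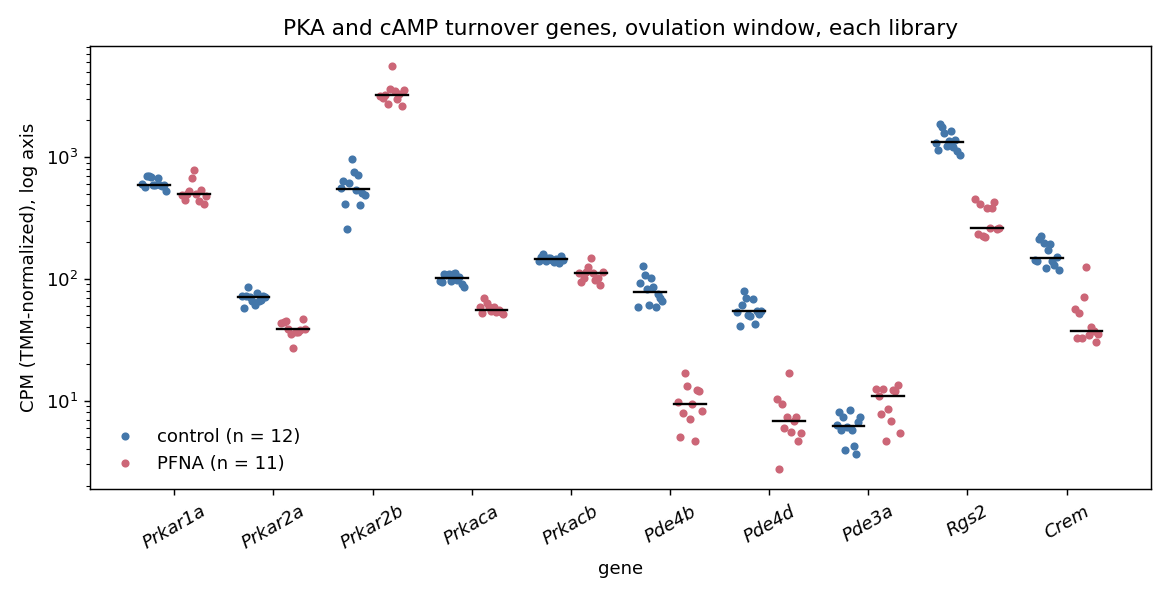
Level of each gene in every library of the ovulation window, in CPM on a log axis, with 12 controls in blue, 11 PFNA libraries in red and black bars at the medians. Prkar2b stood at 2596 to 5569 with PFNA, above every control, while Pde4b, Pde4d, Rgs2, Prkaca and Prkar2a lay below every control.

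Prkar2b encodes RII-beta, the regulatory subunit that FSH is known to raise in granulosa cells (chromosome 12, 31958476 to 32061296). In controls it ranged from 258 to 963 counts per 1000000 (CPM, scaled by TMM), with a median of 546, and with PFNA from 2596 to 5569, with a median of 3222. The lowest PFNA library therefore lay well above the highest control. The log2 fold change was 2.57 (SE 0.17, edgeR adjusted p = 8.0e-13), a 5.95-fold higher level. PFNA replicate 6 had the highest value, and the next highest was 3641 CPM in replicate 5.

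Prkar1a encodes RI-alpha, the regulatory subunit found in most cell types (chromosome 11, 109649405 to 109669656). It ranged from 522 to 704 CPM in controls, median 590, and from 412 to 776 CPM with PFNA, median 494. The groups overlapped, with 7 of 11 PFNA libraries below every control and replicate 6 above every control. Its log2 fold change was -0.23 (SE 0.089, edgeR adjusted p = 0.021). The call was lost with a filter at a mean of 5 CPM (-0.16, adjusted p = 0.10) and with the summed oocyte markers as a covariate (-0.12, adjusted p = 0.24).

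Prkar2a, which encodes the other RII subunit, RII-alpha (chromosome 9, 108689314 to 108750436), ranged from 57.4 to 86.2 CPM in controls, median 71.4, and from 27.1 to 46.4 CPM with PFNA, median 39.0. No PFNA library reached the lowest control. Its log2 fold change was -0.84 (SE 0.078, edgeR adjusted p = 5.5e-10), opposite in sign to that of Prkar2b.

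The main catalytic subunit gene, Prkaca (chromosome 8, 83972993 to 83996443), moved by nearly the same amount as Prkar2a. It ranged from 85.7 to 111 CPM in controls, median 101, and from 51.0 to 69.5 CPM with PFNA, median 55.3. Again the groups did not overlap, and the log2 fold change was -0.82 (SE 0.059, edgeR adjusted p = 4.6e-12). Prkacb, the gene of the beta catalytic subunit (chromosome 3, 146729574 to 146812990), fell less, from 134 to 161 CPM in controls, median 144, to 89.1 to 148 CPM with PFNA, median 111. Of the 11 PFNA libraries 10 lay below every control, and the log2 fold change was -0.40 (SE 0.065, edgeR adjusted p = 5.2e-06).

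To set the subunits beside each other, CPM were divided by the length of all GENCODE M21 exons of each gene, which understates genes with long alternative exons. On this scale Prkar2b made up 49.4 ± 9.47% of the transcripts of the 3 regulatory members in hCG controls and 87.9 ± 1.24% with PFNA. Single controls ranged from 28.6% to 64.4% and single PFNA libraries from 85.3% to 89.3%, so the groups did not overlap and the PFNA libraries were the more uniform. The ratio of both catalytic transcripts to the regulatory ones was 0.188 ± 0.0277 in controls and 0.0345 ± 0.00554 with PFNA. A further regulatory subunit, Prkar1b, is not a member and did not pass the test (76.4 ± 13.8 CPM in controls, 89.4 ± 24.0 CPM with PFNA, log2 fold change 0.23, edgeR adjusted p = 0.11). Counted in after the data were seen, it gave Prkar2b shares of 46.5 ± 9.48% and 85.9 ± 1.51% and ratios of 0.176 ± 0.0233 and 0.0338 ± 0.00535. These are ratios of transcripts, not of subunit proteins, and no test was run on them. They rest on M21 lengths, while only 37.2% of gene starts in the ovulation window matched M21. The lengths behind the counts may therefore differ.

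**Figure D2:**
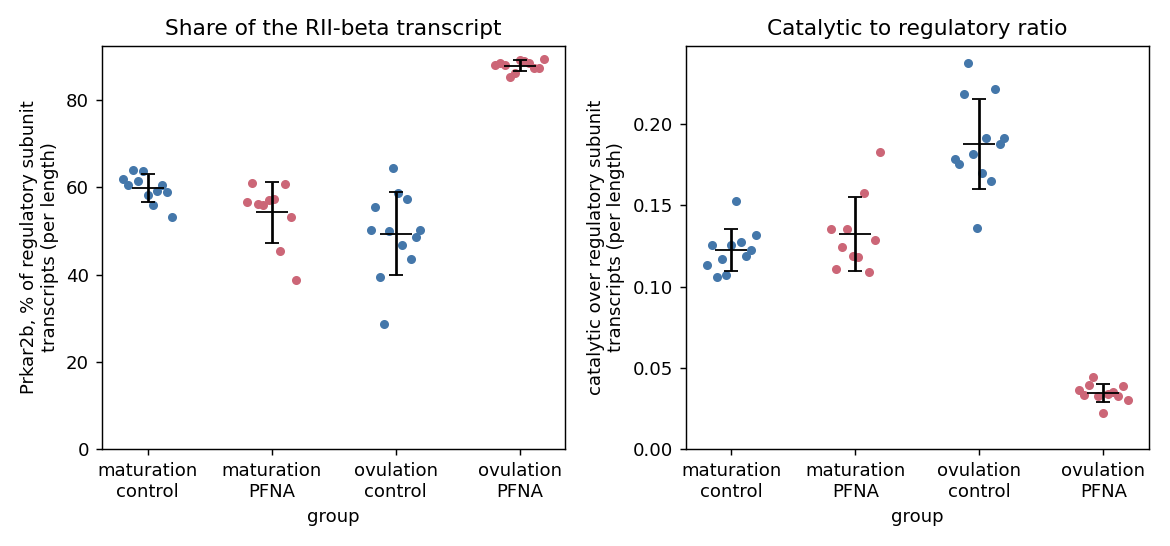
Left, Prkar2b as a percentage of the transcripts of the 3 regulatory members, and right, the ratio of catalytic to regulatory transcripts, for each library of the 4 groups, with black bars for mean ± SD. The ovulation PFNA libraries stand at 85.3% to 89.3% on the left and at 0.0225 to 0.0442 on the right; the windows come from tables in different units and are not to be compared with each other.

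Among the phosphodiesterases, Pde4b and Pde4d fell by amounts within a standard error of each other. The gene Pde4b lies on chromosome 4, 102087543 to 102607259. The PDE4 enzymes degrade cyclic AMP in granulosa cells. Pde4b ranged from 58.3 to 127 CPM in hCG controls, median 78.3, and from 4.70 to 16.8 CPM with PFNA, median 9.36. The highest PFNA library was far below the lowest control. Its log2 fold change was -3.08 (SE 0.19, edgeR adjusted p = 6.8e-13), an 8.47-fold lower level, resting on 53 to 273 estimated counts per PFNA library.

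Pde4d (chromosome 13, 108449948 to 109953461) ranged from 40.7 to 79.2 CPM in controls, median 54.1, and from 2.73 to 16.8 CPM with PFNA, median 6.74. The groups did not overlap here either. Its log2 fold change was -2.91 (SE 0.21, edgeR adjusted p = 6.6e-12), a 7.52-fold lower level, on 46 to 230 estimated counts per PFNA library. The highest PFNA value belonged to replicate 6, ahead of replicate 1 at 10.3 CPM.

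Pde3a, the phosphodiesterase of the oocyte (chromosome 6, 141249269 to 141507448), was the exception in this group. It ranged from 3.62 to 8.32 CPM in controls, median 6.18, and from 4.64 to 13.3 CPM with PFNA, median 10.9. The groups overlapped, with 7 of 11 PFNA libraries above every control. On the log2 scale the change was 0.66 (SE 0.18, edgeR adjusted p = 0.0024).

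Oocyte transcripts moved with Pde3a. A list of 12 oocyte markers (Gdf9, Bmp15, the zona genes and others) was summed per 1000000 of each library's total, without TMM scaling. The sums were 57.9 to 278 in hCG controls and 23.4 to 501 with PFNA. With TMM scaling they were 63.7 to 283 and 24.1 to 440 CPM. Of the 11 markers tested 7 were higher and none lower, where 38.0% of all genes tested were higher and 35.2% lower. PFNA replicate 10 had both the highest marker sum and the highest Pde3a level. PFNA replicate 5 had the lowest marker sum, 23.4, and the lowest Pde3a level of its group, 4.64 CPM. With the log2 marker sum as a covariate the Pde3a log2 fold change was 0.27 (edgeR adjusted p = 0.13), so the call was lost. The part of oocyte RNA in the Pde3a difference was not tested beyond this fit.

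**Figure D3:**
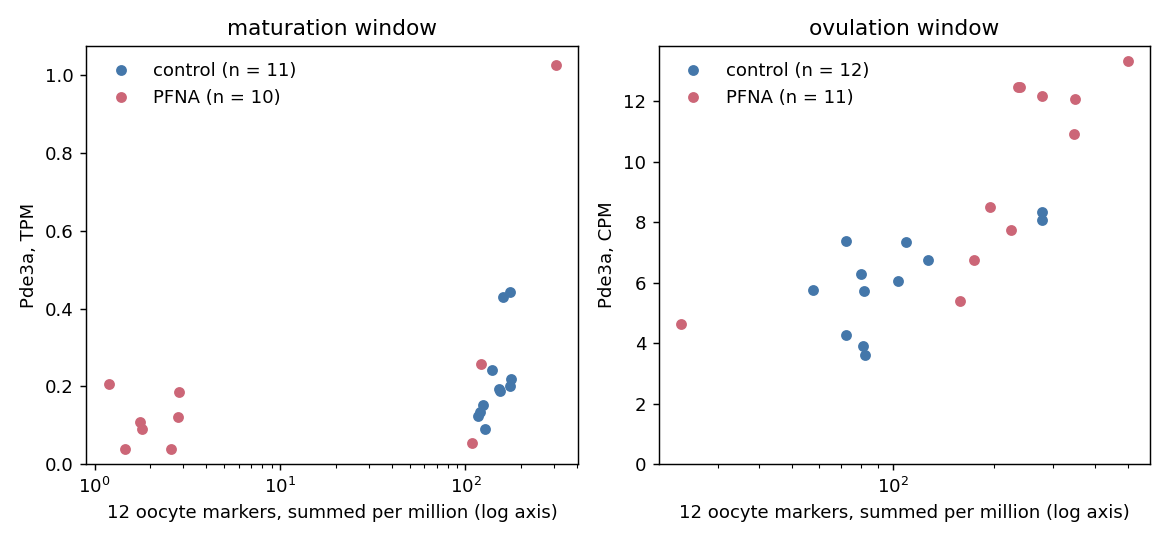
Pde3a level against the summed level of 12 oocyte markers per 1000000 (log axis) in each library, for the maturation window (left, TPM) and the ovulation window (right, CPM). In the ovulation window the marker sums are per library total, without TMM scaling, while the Pde3a CPM are scaled by TMM. In the ovulation window the library with the highest marker sum, 501, has the highest Pde3a, 13.3 CPM, and in the maturation window PFNA replicate 10 stands apart at 1.03 TPM and a marker sum of 307. The other maturation PFNA libraries do not all line up this way. Replicate 7, with the lowest marker sum, 1.19, has 0.207 TPM of Pde3a, and replicate 2, with 108, has 0.0552 TPM.

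Rgs2 encodes a protein that speeds the switching-off of G proteins (chromosome 1, 143999338 to 144004161). It was the most abundant member per length in hCG controls, at 382 ± 73.2 CPM per kilobase. Before division by length it ranged from 1033 to 1865 CPM in controls, median 1333, and from 220 to 449 CPM with PFNA, median 264. The groups did not overlap. The change on the log2 scale was -2.12 (SE 0.14, edgeR adjusted p = 1.4e-12), a 4.34-fold lower level.

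Crem encodes activators and repressors of cyclic AMP responsive transcription, including the inducible repressor ICER. The tables hold a single row for the gene, so ICER could not be told from the longer forms. It ranged from 117 to 224 CPM in controls, median 148, and from 30.4 to 126 CPM with PFNA, median 37.2. Of the 11 PFNA libraries 10 lay below every control, and replicate 6, at 126 CPM, lay within the control range. The Crem change on the log2 scale was -1.70 (SE 0.21, edgeR adjusted p = 1.2e-07), a 3.25-fold lower level.

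In the ovulation PFNA group, replicate 6 had the highest value for 5 of the 10 members, Prkar1a, Prkar2b, Prkacb, Pde4d and Crem, and the lowest value for Prkar2a. Each of the 10 calls held in all 23 fits that left out a library, replicate 6 among them. Within the controls, replicate 4 was the highest for 4 members and had the lowest Prkar2b level, 258 CPM. Spread within the controls was widest for Prkar2b, with a coefficient of variation of 32.5%, and narrowest for Prkacb, with 5.17%.

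In hCG controls the order of the members per length ran from Rgs2 through Prkar2b at 156 ± 50.7 and Prkar1a at 142 ± 13.6 to Prkaca at 40.6 ± 3.43 CPM per kilobase. Prkar2b and Prkar1a were closer than the spread of Prkar2b. With PFNA the order was headed by Prkar2b at 929 ± 217 CPM per kilobase, followed by Prkar1a at 121 ± 25.0 and Rgs2 at 88.0 ± 24.9. Pde4b, Pde3a and Pde4d held the last 3 places with PFNA, at 0.912 ± 0.343, 0.759 ± 0.248 and 0.624 ± 0.312 CPM per kilobase, and did not differ from one another beyond their spread. Both orders rest on the GENCODE M21 lengths, which may differ from those behind the counts.

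The maturation window showed small differences. Its values were taken as TPM (transcripts per 1000000, already divided by length), and limma was run on log2(TPM + 1) for genes averaging 1 TPM or more. The order of the genes and the subunit shares in this window rest on that reading. Of the 10 members 7 passed this filter, and 3 of the 7 were lower and none higher, where 29.4% of 13712 genes tested passed, 16.1% lower and 13.3% higher. For none of the 7 did the groups part fully, as they did for 1.28% of all genes tested, 0.788% lower and 0.489% higher. The median log2 fold change of the 7 was -0.17, beside 0.02 over all genes tested. None of the 3 calls held when the libraries were rescaled without 14 genes that match mitochondrial sequence. These genes took 20.8 ± 1.90% of TPM in controls and 25.2 ± 1.97% with PFNA. Nor did any call hold with the summed oocyte markers as a covariate. The marker sum was 116 to 177 TPM in controls and 1.19 to 2.85 TPM in PFNA replicates 3 to 9. It largely coincided with PFNA, so that fit separates them poorly and no conclusion is drawn from it. The Prkar2b effect was larger in that fit (-0.49, SE 0.16).

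**Figure D4:**
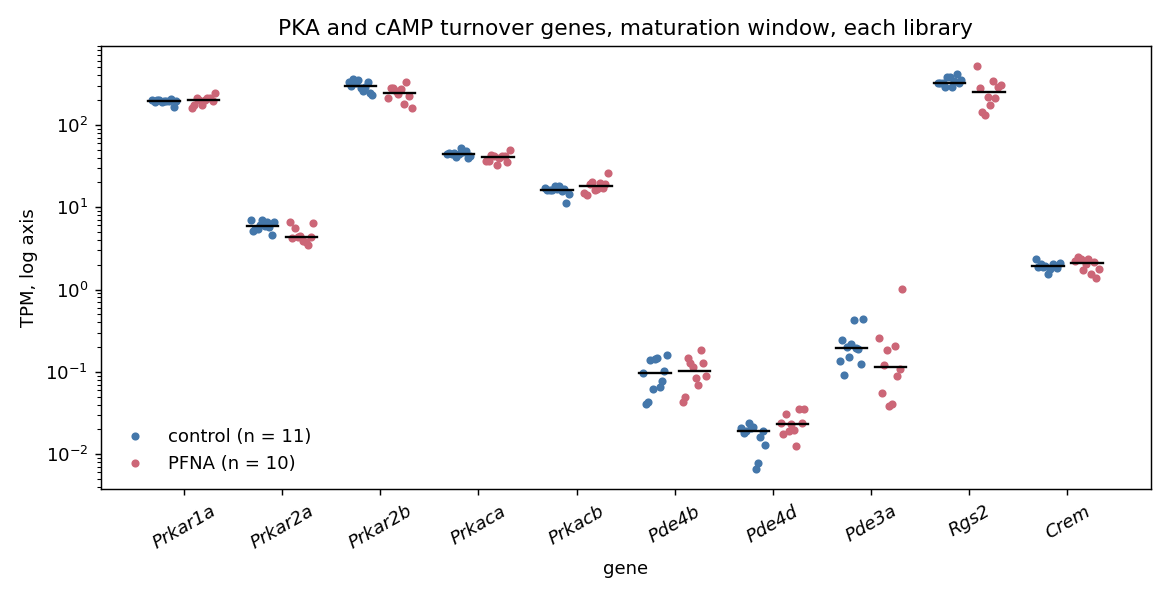
Level of each gene in every library of the maturation window, in TPM on a log axis, with 11 controls in blue, 10 PFNA libraries in red and black bars at the medians. All 10 genes have overlapping groups, and Pde4b and Pde4d lie below 0.19 TPM in every library.

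Prkar2b and Prkar1a were again the most abundant PKA transcripts. Prkar2b ranged from 229 to 361 TPM in controls, median 299, and from 160 to 331 TPM with PFNA, median 245, with 4 of 10 PFNA libraries below every control. The Prkar2b log2 fold change was -0.32 (SE 0.11, limma adjusted p = 0.038), and the adjusted p rose above 0.05 in 11 of 21 fits that left out a library. Without mitochondrial-like genes it was -0.24 (limma adjusted p = 0.11). With the oocyte covariate it was -0.49 (limma adjusted p = 0.078).

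Prkar2a ranged from 4.56 to 7.05 TPM in controls, median 5.94, and from 3.43 to 6.64 TPM with PFNA, median 4.35, with 7 of 10 PFNA libraries below every control. On the log2 scale the change was -0.30 (SE 0.098, limma adjusted p = 0.024), and this call held in all 21 fits that left out a library. It was -0.24 without mitochondrial-like genes (limma adjusted p = 0.060) and -0.040 with the oocyte covariate (limma adjusted p = 0.87). PFNA replicates 1 and 10, with 6.64 and 6.51 TPM, were the highest of their group. Without PFNA replicates 1 and 2 the log2 fold change was -0.34 (limma adjusted p = 0.00843). These 2 replicates had oocyte marker sums of 121 and 108 TPM, while replicate 10, with 307 TPM, was kept in that fit.

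Prkar1a, at 194 ± 10.1 TPM in controls and 197 ± 25.1 TPM with PFNA, did not pass (log2 fold change 0.01, limma adjusted p = 0.89), and its sign turned with median-ratio size factors (-0.017). Prkaca, at 44.8 ± 3.56 and 39.9 ± 4.86 TPM, missed the threshold (log2 fold change -0.17, SE 0.064, limma adjusted p = 0.0501) and passed it with median-ratio size factors (-0.20, adjusted p = 0.0029), while it was -0.089 (adjusted p = 0.32) without mitochondrial-like genes. Prkacb, with medians of 16.2 TPM in controls and 18.1 TPM with PFNA, did not pass (log2 fold change 0.17, SE 0.090, limma adjusted p = 0.16). It was called higher without mitochondrial-like genes (0.25, adjusted p = 0.049) and without PFNA replicates 1 and 2 (0.24, adjusted p = 0.034). Prkar2b made up 59.7 ± 3.23% of the transcripts of the 3 regulatory members in controls and 54.2 ± 6.95% with PFNA, with ranges of 53.2% to 63.9% and 38.8% to 61.0% that overlapped.

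Rgs2 had the highest mean of the members in this window as well, though not far from Prkar2b. The Rgs2 means were 339 ± 40.4 TPM in controls and 260 ± 114 TPM with PFNA. Those of Prkar2b were 300 ± 43.4 and 243 ± 51.3 TPM. Rgs2 ranged from 285 to 411 TPM in controls, median 325, and from 133 to 516 TPM with PFNA, median 247. Spread differed between the groups, with a coefficient of variation of 11.9% in controls and 43.9% with PFNA. PFNA replicate 1 stood above every control, and 6 of 10 PFNA libraries stood below every control. Its log2 fold change was -0.49 (SE 0.18, limma adjusted p = 0.045), and the call was lost in 14 of 21 fits that left out a library. Without PFNA replicates 1 and 2 it was -0.65 (limma adjusted p = 0.0024). Replicate 1 held the highest Rgs2 value, so leaving it out lowers the PFNA level. The log2 fold change was -0.41 without mitochondrial-like genes (limma adjusted p = 0.078) and -0.056 with the oocyte covariate (limma adjusted p = 0.91).

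Crem had medians of 1.91 TPM in controls and 2.10 TPM with PFNA and did not pass (log2 fold change 0.03, SE 0.080, limma adjusted p = 0.84). Without PFNA replicates 1 and 2 its sign turned (-0.016). The 3 phosphodiesterase genes were under the filter. Pde4b was at 0.0982 ± 0.0442 TPM in controls and 0.103 ± 0.0450 with PFNA, and Pde4d at 0.0170 ± 0.00559 and 0.0240 ± 0.00746 TPM. Pde3a had medians of 0.193 TPM in controls and 0.115 with PFNA. In a fit with no filter their limma adjusted p were 0.90 for Pde4b, 0.46 for Pde4d and 0.86 for Pde3a. Of the 10 PFNA libraries 5 had more Pde4d than every control and none less, and for Pde3a 4 lay below every control and 1 above. The pseudocount of 1 TPM is far above these levels and compresses their differences, and the number of reads behind them is unknown, so these p leave the phosphodiesterases unsettled in this window.

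Oocyte markers moved with PFNA in this window, with a median log2 fold change of -2.22. Their sum lay between 116 and 177 TPM in the 11 controls, and in the PFNA group it was 1.19 to 2.85 in replicates 3 to 9, 121 and 108 in replicates 1 and 2, and 307 in replicate 10. All 10 of the markers tested were lower. Of the granulosa markers 6 of 9 were lower too, with a summed range of 34262 to 54620 TPM in controls and 14710 to 40918 TPM with PFNA, and all 9 had medians of at least 1 TPM in both groups. Inha made up most of these sums, with means of 34970 and 21742 TPM. In the ovulation window 6 of 9 granulosa markers were higher and 2 lower, and their sums, 11589 to 18170 CPM and 9490 to 15309 CPM, overlapped. Most of the ovulation sums came from the 2 lower markers, Inha (means 7352 and 5538 CPM) and Inhba (6698 and 5332 CPM). The 6 higher had means of at most 452 CPM, so the sums hardly reflect them. The sums of 5 endothelial markers were 30.05 to 110 CPM in hCG controls and 39.1 to 319 CPM with PFNA, with all 5 higher. Those of 7 immune markers were 2.39 to 129 and 4.22 to 146 CPM, with 1 higher. No marker of these lists was at 0 in every library of a group. Theca marker sums were 1436 to 2579 CPM in hCG controls and 1182 to 2896 CPM with PFNA, with 3 of 6 higher. In maturation follicles theca sums were 4837 to 7400 TPM in controls and 3646 to 7141 TPM with PFNA, with 1 of 6 higher and 1 lower. Endothelial sums were 3.59 to 47.3 and 7.89 to 50.4 TPM, with 0 of 3 called, and immune sums 8.92 to 71.5 and 29.9 to 163 TPM, with 1 of 3 higher. These marker counts have to be read against the shares of all genes tested. After hCG 38.0% were higher and 35.2% lower, and in maturation follicles 13.3% were higher and 16.1% lower. The part of the marked cell types in the members' differences was not tested, apart from the oocyte covariate.

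The PFNA effects of the windows were compared per gene as the effect on log2(CPM + 1) minus that on log2(TPM + 1), with limma in each table. For all 7 members tested in both windows the effect differed (adjusted p under 0.05), 1 toward a higher and 6 toward a lower effect after hCG, as it did for 67.7% of the 11215 genes tested, 32.0% higher and 35.6% lower. For Prkar2b the effect was -0.32 in the maturation window and 2.61 in the ovulation window, a difference of 2.93 (SE 0.20, limma adjusted p = 1.2e-16). For Crem the difference was -1.81 (SE 0.21, limma adjusted p = 3.1e-09), and for Rgs2 it was -1.65 (SE 0.22, limma adjusted p = 3.0e-08). The differences of Prkaca, Prkacb and Prkar2a were -0.64, -0.58 and -0.52 (limma adjusted p from 1.4e-08 to 0.00033). That of Prkar1a was -0.27 (limma adjusted p = 0.026), and it was lost with median-ratio size factors (-0.21, adjusted p = 0.058) and with the oocyte covariate (-0.13, adjusted p = 0.39). Each window has its own table, and any batch that acted on one of them cannot be told apart from the window.

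**Figure D5:**
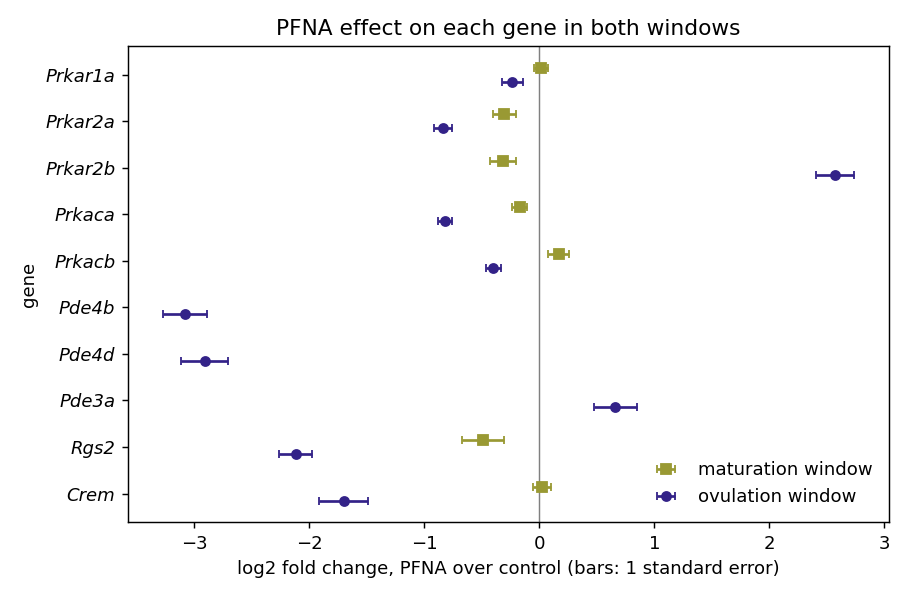
Log2 fold change of PFNA over control for each gene, with bars of 1 standard error, squares for the maturation window (log2(TPM + 1), limma) and circles for the ovulation window (edgeR). Pde4b, Pde4d and Pde3a have no square because their means were under 1 TPM; Prkar2b stands at -0.32 and 2.57.

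Other genes of the pathway were read from lists of cyclic AMP signalling genes, and those named were called by edgeR after hCG or by limma in maturation follicles. At most 3 genes per list, direction and window were named, those of smallest p, which need not have changed most. The counts have to be read against the shares of all genes that passed, 73.2% after hCG (38.0% higher, 35.2% lower) and 29.4% in maturation follicles (13.3% higher, 16.1% lower), and nothing particular to a list is drawn from them. None of the maturation calls named by this rule held with the oocyte covariate, which largely coincided with PFNA in that window and is poorly separated from it. After hCG the calls of Pkig, Popdc3, Sik3 and Rgs1 were lost with the covariate. A list of 19 genes around cyclic AMP production held adenylyl cyclases, stimulatory and inhibitory G protein alpha subunits, Ric8b and the receptors Gpr3 and Gpr12. Of these, 15 were tested in the ovulation window, with 7 higher and 4 lower and a median log2 fold change of 0.14. Since the list mixes genes that raise and that lower cyclic AMP, its counts and medians give no direction for cyclic AMP. The higher genes of smallest p were the cyclases Adcy7, Adcy9 and Adcy5 (log2 fold changes 1.76, 1.27 and 1.09). Named after their values were seen, the cyclase Adcy4 was higher by more (2.31, SE 0.50), at means of 1.83 and 9.14 CPM, and the cyclase Adcy3 was lower (-0.26). Adcy9 went from 21.7 ± 5.53 CPM to 52.4 ± 12.2 CPM. Gnas, the gene of the stimulatory G protein alpha subunit, whose locus also yields overlapping transcripts, was lower, with 1857 ± 298 CPM in controls against 1147 ± 170 CPM (log2 fold change -0.69). Gnai3 and Ric8b were the other lower genes of this list named by p, with -0.34 and -0.26. Of 12 tested in the maturation window, 4 were higher and 2 lower, with a median of 0.13. The Adcy6 level rose from 37.2 ± 7.17 TPM to 55.6 ± 9.09 TPM. Adcy9 and Gnai1, the latter the gene of an inhibitory subunit, were higher too (log2 fold changes 0.46 and 0.48). Adcy3 was lower with -0.39. Gpr3, the receptor that keeps cyclic AMP high in the oocyte, fell from 4.63 ± 1.38 to 2.31 ± 2.72 TPM, and moved in the direction of the oocyte markers.

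Of 13 other phosphodiesterases that act on cyclic AMP, 11 were tested in the ovulation window, with 5 higher and 4 lower and a median of 0.10. Pde7b, of a family specific for cyclic AMP, had the smallest p. It rose from 42.1 ± 6.40 CPM to 180 ± 49.0 CPM, with every PFNA library (112 to 243 CPM) above every control (29.5 to 54.4 CPM). Pde8b and Pde1b were higher (log2 fold changes 1.62 and 1.54) at means of at most 9.98 CPM. Pde3b, Pde10a and Pde1a were lower, with -0.83, -1.16 and -0.96. Maturation follicles allowed a test of 5, with a median of -0.04. Pde7b was higher (log2 fold change 0.80), from 0.965 ± 0.278 to 2.50 ± 0.909 TPM, and Pde4a was lower with -0.29, a call lost without mitochondrial-like genes.

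Of 5 other PKA subunits and inhibitors, 4 were tested in the ovulation window. Pkig, an inhibitor of the catalytic subunit, was higher (log2 fold change 0.43) and Prkx, a kinase related to PKA, was lower (-0.85), and Prkar1b and Pkia did not pass. None of the 3 tested in the maturation window passed (limma). Of 16 A-kinase anchors, which tether PKA to parts of the cell, 10 were tested in each window. In the ovulation window 3 were higher, Akap8l, Akap7 and Akap9 with 1.10, 1.74 and 0.44, and 6 were lower, of which Akap8, Akap11 and Akap10 had the smallest p, with -0.85, -0.76 and -0.42, and the list's median was -0.41. Maturation follicles had 3 higher, Akap5, Akap13 and Akap9 with 0.55, 0.39 and 0.32, none lower, and the median was 0.18. Akap13 was among the 6 lower in the ovulation window (-0.58), so its calls were opposite in direction.

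Cyclic AMP also binds EPAC proteins and popeye proteins. All 5 of these sensors were tested in the ovulation window, and 3 were higher and 2 lower. Rapgef4, the gene of EPAC2, rose from 3.77 ± 1.35 CPM to 39.7 ± 10.5 CPM, with 25.4 to 53.5 CPM in the PFNA libraries and 1.38 to 5.93 CPM in controls. For Rapgef4 the log2 fold change was 3.38 (SE 0.19). Popdc2 and Rapgef3 were higher, at means of at most 3.61 CPM, and Bves and Popdc3 were lower, with -1.38 and -0.77. In the maturation window 2 of 3 tested were higher, Bves and Popdc2 (log2 fold changes 0.68 and 0.91), so Bves was called in opposite directions in the windows.

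Of 10 genes of the CREB family, its coactivators and the salt-inducible kinases, 6 were lower and 1 higher in the ovulation window, with a median of -0.24. Sik1, a kinase that restrains CREB coactivators, fell from 225 ± 69.1 CPM to 56.7 ± 14.2 CPM, with no overlap. The coactivators Ep300 and Crebbp were lower, with -0.66 and -0.71, and Sik3 was higher with 0.19. Maturation follicles had 4 higher and 1 lower, with a median of 0.24. Creb1, Crtc3 and Sik2 were the higher genes of smallest p, with 0.30, 0.31 and 0.29, and Sik3 was the lower gene with -0.35. Ep300, named here after its values were seen, was the fourth higher gene (0.35, limma adjusted p = 0.049), so its calls in the windows were opposite in direction. The same held for Sik3 and for Creb1. After hCG Creb1 was lower (-0.47, edgeR adjusted p = 3.8e-07), with all 11 PFNA libraries below every control.

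Of 15 transcripts that CREB is known to induce, 13 were tested in the ovulation window, with 6 higher and 5 lower and a median of 0.21. Per1, Star and Junb were lower (log2 fold changes -2.28, -2.13 and -1.17), and Fosb, Cyp19a1 and Nr4a2 were higher, with 2.54, 2.23 and 1.81. Per1 had 108 to 171 CPM in controls and 12.4 to 37.5 CPM with PFNA. Of the same list 12 were tested in the maturation window, with 5 higher and 2 lower and a median of 0.45. Dusp1, Nr4a2 and Egr1 were higher (0.67, 0.50 and 1.10), and Inha and Cyp19a1 lower (-0.74 and -0.98). Junb, named here after its values were seen, was among the 5 higher (0.95, limma adjusted p = 0.031). The calls of Junb and Cyp19a1 were thus opposite in direction between the windows. Among 17 other RGS genes, 4 were higher and 3 lower of 13 tested in the ovulation window, with Rgs11, Rgs3 and Rgs22 at 3.03, 2.25 and 2.87 and Rgs6, Rgs10 and Rgs1 at -2.88, -0.55 and -1.72. Rgs22, Rgs6 and Rgs1 had means of at most 2.30 CPM. In the maturation window none was higher and 2 of 7 were lower, Rgs10 and Rgs3 with -0.50 and -0.69.

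Genes with the most similar pattern were sought within groups, after each library's log2 level had been centred on its group mean, over the 23 libraries of the ovulation window and among 8872 genes with a mean of at least 10 CPM. These values are the highest of many and describe likeness only. For Crem they were Scin, Lrrn3 and Yes1 (Pearson r from 0.922 to 0.931). For Pde4d they were Nr4a3, Bzw1 and Map1lc3b (0.859 to 0.865). For both members PFNA replicate 6 was the highest of its group, with 126 CPM of Crem (median 37.2) and 16.8 CPM of Pde4d (median 6.74). How far this library sets their r was not tested. Rgs2 was most like Ptgs2, Bmp3 and Kdm3a (0.770 to 0.814), Pde4b most like Gfod1, Nts and Plxna2 (0.725 to 0.730), and Prkar2b most like Rerg, Eid1 and As3mt (0.760 to 0.839). For Pde3a the genes were AU015836, Bpgm and Rbpms2 (0.782 to 0.790). In the maturation window, over 21 libraries and 6497 genes, Prkar2b was most like Socs2, Scd2 and Trib2 (0.892 to 0.936), Rgs2 most like Mcm7, Stmn1 and Smarcb1 (0.841 to 0.891) and Crem most like Cyp51, Nr4a1 and Smndc1 (0.711 to 0.791). There Pde3a was most like Plat, Ints4 and Zfp36l1, Pde4b most like Penk, Nos3 and Angpt2, and Pde4d most like Acat1, Ogdhl and Ivd, at mean levels under 1 TPM for the member itself. Pde3a stood at 1.03 TPM in PFNA replicate 10 against 0.258 TPM in the next library of that group, and the weight of that library was not tested.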

How the data were processed

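RNA-seq gene tables of 44 libraries in 4 groups were used. The submitters' processing notes name Partek, Bowtie2 and HISAT2 without versions or roles; the counting, the use of strand and the annotation are not given in the sources used here. The maturation values the authors deposited were taken as TPM. Each library sums to 1000000, although the table is named as raw counts, so their depth is unknown. Such a total would hold for CPM too, so it does not by itself show a division by length. For the ovulation window they deposited estimated counts (the authors' values are not all whole and were rounded here), totalling 10.6 to 19.5 times 1000000 per library. Gene starts matched GENCODE M21 (GRCm38) for 99.4% of symbols in the maturation table and 37.2% in the ovulation table, and coordinates are from the former. A column spelled unlike its title was taken as maturation control replicate 6. No maturation control numbered 4 was among the 44 libraries, and the per-sample columns were all used.

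Ovulation counts were tested with edgeR 4.0.16 (filterByExpr, TMM, robust quasi-likelihood, in R 4.3.3) and TPM with limma 3.58.1 (log2(TPM + 1), mean of at least 1 TPM, trend, robust), on whole tables, with Benjamini-Hochberg adjustment and calls at adjusted p under 0.05. The pseudocount of 1 TPM makes fold changes of low genes too small. DESeq2 1.42.0 was an alternative. No library was identical to another, and each pair of libraries in an ovulation group differed by more than sampling noise. Scripts were tested on simulated data. All members were named whatever their result, and from each pathway list up to 3 genes called in each direction with the smallest p in each window. Members and lists were chosen with earlier results of these data known. The rescaling without mitochondrial-like genes (at least 90% identity over 50% of a transcript) was added after the data were seen.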

Additional observations from a re-analysis of the deposited data

Results flagged for a closer look

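In the PFNA group of the maturation window, 13 values (10 members, 2 subunit ratios and the oocyte marker share) were searched for a library set apart from the other 9 by Dixon's test, which chance meets in about 1 of 20 groups. Pde3a in replicate 10 was at 1.03 TPM against 0.258 TPM in the next library. The oocyte marker share of that library was 0.0307% against 0.0121% in the next.

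For 7 members the PFNA effect differed between the windows by limma with Benjamini-Hochberg adjustment. The same held for 67.7% of the 11215 genes tested, 32.0% higher and 35.6% lower. On the log2 scale, ovulation minus maturation, the difference was 2.93 for Prkar2b, -1.81 for Crem, -1.65 for Rgs2, -0.64 for Prkaca, -0.58 for Prkacb, -0.52 for Prkar2a and -0.27 for Prkar1a. The Prkar1a call was lost with median-ratio size factors (limma adjusted p = 0.058) and with the oocyte covariate (limma adjusted p = 0.39).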

How the results depend on the processing

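In the ovulation window 10 members were called in the main fit and 8 to 10 under the alternatives, and each of the 23 fits without a library gave 10. In the maturation window 3 members were called; the count was 1 with no filter on low values, 0 with the oocyte marker share as a covariate and 1 without mitochondrial-like genes (Prkacb, higher), and 1 to 3 without a single library, with 1 when PFNA replicate 5 or control replicate 1, 2, 3 or 10 was left out. Without control replicate 6 it was 2, on account of Prkar2b and Rgs2 each falling past the threshold while Prkaca passed. The cause of these moves was not tested. In this window the oocyte marker share largely coincided with PFNA, so the fit with it separates them poorly. Over all genes of the maturation window, 711 were called with the oocyte covariate instead of 4030, and 3073 were higher and 1747 lower without mitochondrial-like genes instead of 1824 and 2206. The replicate block, with replicate numbers taken as blocks, gave 1 member in the maturation window and 10 in the ovulation window; only 1 of 9 same-numbered pairs correlated over 0.1 in the maturation window and 0 of 11 in the ovulation window, so the numbers were not taken to pair samples. The Prkar1a fold change of the maturation window turned to -0.017 with median-ratio size factors, -0.0014 with the oocyte covariate, -0.011 with the replicate block, -0.022 without PFNA replicate 10 and -0.0080 without control replicate 11 (range without a single library -0.022 to 0.048), and that of Crem to -0.016 without PFNA replicates 1 and 2; both were uncalled throughout. For the pathway genes named, 431 values under another setting kept the call and 43 did not, and 1367 without a library kept it and 49 did not, with 0 changes of sign. Reads behind TPM are unknown, which limits Pde4b, Pde4d and Pde3a there.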
